A study of Mus musculus with 6 samples.

Results

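Adam11, a gene of the ADAM family of membrane proteins, was measured by RNA sequencing of livers from C57BL/6J mice fed a regular diet (RD) or a high-cholesterol diet (HCD). It was found by its symbol, is 1 of 20673 genes in the deposited tables, and was chosen because its rise with HCD was among the most consistent of these data. Its values by diet are therefore given as a description without a test. The RD group held 3 livers and the HCD group held 3 livers of mice fed HCD for 3 days. HCD combined cholesterol, cocoa butter and sodium cholate, so that their effects cannot be told apart here. Mice of this wild-type inbred strain were about 12 weeks old, and both sexes were used. Each liver gave 1 library, with 13771630 to 23129576 counts on genes with RD and 13935491 to 18545549 with HCD.

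ADAM proteins carry a disintegrin domain, which can bind integrins, and a metalloprotease domain. In Adam9, Adam10 and Adam17 the protease is active and sheds the outer parts of other membrane proteins. Adam11 belongs with Adam22 and Adam23 to a group without protease activity, which is known mainly from neurons. Adam22 and Adam23 are receptors for the secreted LGI proteins, and Adam11 is needed to place Kv1 potassium channels at synapses of the cerebellum.

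Adam11 (ENSMUSG00000020926) lies on the plus strand of chromosome 11, from 102761439 to 102780262 in GRCm38 by the GENCODE M21 annotation. It is protein coding, with 9 annotated transcripts, of which 2 are coding. Its exons cover 5669 bases in 26 blocks, and the gene length implied by the deposited counts and FPKM (fragments scaled by gene length and library total) was also 5669 bases in each of the 6 livers. No other annotated gene overlapped Adam11 on either strand, and 0 other genes had a transcript that aligned to it over at least 200 bases at 90% identity.

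Every HCD liver held several times more Adam11 RNA than every RD liver. The RD livers had 152, 143 and 243 Adam11 reads in replicates 1, 2 and 3. The HCD livers had 1166, 881 and 869. Scaled to CPM (read counts relative to the library total, adjusted by edgeR's TMM factors), the level was 7.31 in RD replicate 1, with an exact 95% Poisson interval of 6.19 to 8.57, 9.98 (8.41 to 11.8) in RD replicate 2 and 10.6 (9.27 to 11.96) in RD replicate 3. In HCD replicates 1, 2 and 3 it was 58.9 (55.6 to 62.4), 60.7 (56.8 to 64.9) and 70.4 (65.8 to 75.3). The diets did not overlap, and the lowest HCD liver was 5.59-fold above the highest RD liver. RD replicate 1 was the lowest liver and HCD replicate 3 the highest.

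Mean Adam11 CPM was 9.28 ± 1.73 (SD, n = 3) with RD and 63.4 ± 6.19 (SD, n = 3) with HCD, a ratio of 6.83. The log2 fold change of HCD over RD in edgeR's fit was 2.77 with a standard error of 0.18. Here and below, standard errors (SE) were worked back from edgeR's quasi-likelihood F statistic, as the absolute log2 fold change over its square root. The spread between livers of a diet was 18.7% of the mean with RD and 9.77% with HCD, against a counting error of 6.41% to 8.36% in single RD livers and 2.93% to 3.39% in single HCD livers. These intervals and errors cover counting only.

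**Figure D1:**
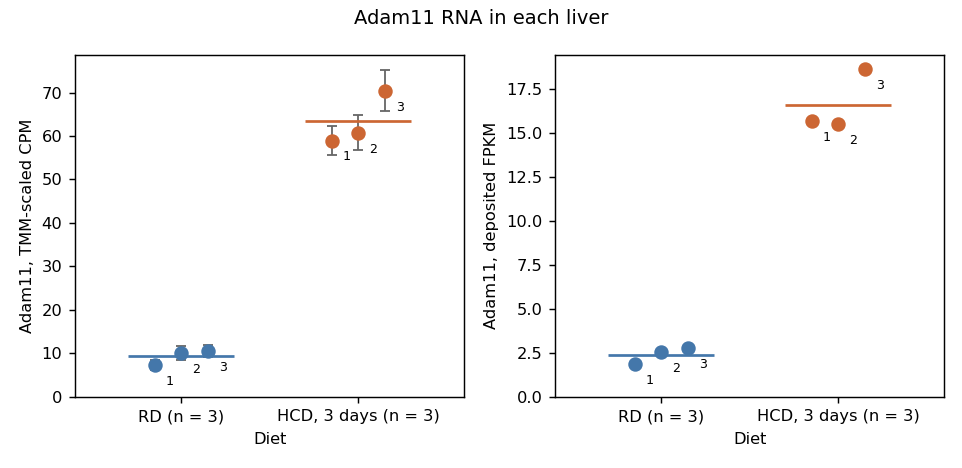
Adam11 RNA in each liver, as TMM-scaled CPM with exact 95% Poisson intervals (left) and as deposited FPKM (right), by diet. Points are livers numbered by replicate and lines are diet means: the RD livers sit between 7.31 and 10.6 CPM and the HCD livers between 58.9 and 70.4 CPM, without overlap.

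The deposited FPKM gave the same picture per length. Adam11 was at 1.87, 2.52 and 2.78 FPKM in RD replicates 1, 2 and 3 and at 15.7, 15.5 and 18.6 FPKM in HCD replicates 1, 2 and 3. Ordered by FPKM among all 20673 genes, Adam11 stood at place 9096, 8298 and 8081 in the RD livers and at 2995, 2990 and 2736 in the HCD livers. Its mean was above that of 59.0% of the genes with RD and of 85.9% with HCD. Adam11 thus moved from the middle of the listed genes to the upper part.

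HCD replicate 1 stood apart from the other livers by sex. The female-specific RNA Xist had 5032 counts there against 0 in each of the remaining livers, while the Y-linked genes Ddx3y, Eif2s3y, Kdm5d and Uty were at 0 in it and at 65 to 1229 counts elsewhere. Adam11 was at 58.9 CPM in that liver and at 60.7 and 70.4 CPM in the other HCD livers, and its log2 fold change was 2.82 without it. Leaving out each of the 6 livers in turn gave log2 fold changes of 2.62 to 2.88, the lowest without RD replicate 1.

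The diet labels were checked on genes of cholesterol handling. Sqle, an enzyme of cholesterol synthesis, and Cyp7a1, the rate-limiting enzyme of bile acid synthesis, were called lower, with log2 fold changes of -4.33 and -1.75 (edgeR quasi-likelihood, p adjusted over 13105 genes by Benjamini-Hochberg = 0.00074 and 0.0453). Abcg5 and Abcg8, which form the sterol efflux transporter, were called higher, by 2.74 and 2.64 on the log2 scale (adjusted p = 0.0104 and 0.0041, edgeR). The log2 fold change of Adam11 lay beside those of Abcg5 and Abcg8, and whether they differ was not tested. Mean CPM of Abcg5 was 53.0 ± 28.3 (SD, n = 3) in RD livers and 356 ± 55.9 in HCD livers, a wider spread in the RD livers than that of Adam11.

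In the whole comparison, 428 of 13105 genes were called at an adjusted p under 0.05 (3.27%), 255 of them higher with HCD (1.95%) and 173 lower (1.32%). Library sizes without TMM factors gave 158 higher and 161 lower. The total was 36, 51 and 146 without RD replicates 1, 2 and 3, and 103 without HCD replicate 3. Every HCD liver was above every RD liver for 1829 genes (14% of those tested).

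Adam11 was set against the 255 genes called higher, the contrast it was chosen from. Its log2 fold change was the 27th largest of these, and the 5th largest of the 199 that had a mean of at least 5 CPM with RD. Ordered by the gap between the lowest HCD liver and the highest RD liver, it came 3rd, with 2.43 on the log2 scale. CT010467.1, an rRNA gene in the annotation, and Gm5805 stood above it with gaps of 3.37 and 2.62. Rad51b, a gene of DNA repair, and Cyp4a14, a fatty acid hydroxylase, came next with 2.37 and 2.29.

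The HCD livers of Cyp4a14, CT010467.1 and Rad51b were spread more widely than those of Adam11. Cyp4a14 was at 2054 CPM in HCD replicate 1 and at 202 and 201 CPM in HCD replicates 2 and 3. CT010467.1 was at 3022, 2957 and 10126 CPM in the HCD livers. Rad51b was at 19.1, 3.58 and 4.86 CPM with HCD and at 0.26 to 0.29 with RD. Of the 51 genes called higher with a log2 fold change of at least 2, 0 had a smaller standard error than Adam11, whose own was 0.18. Inmt at 0.20 and Srebf1 at 0.21 were close to it, while Slc51b, at 0.08 CPM with RD, had 0.82. Adam11 was chosen for a consistent rise, so that its place in this order follows from the choice and is a description only.

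**Figure D2:**
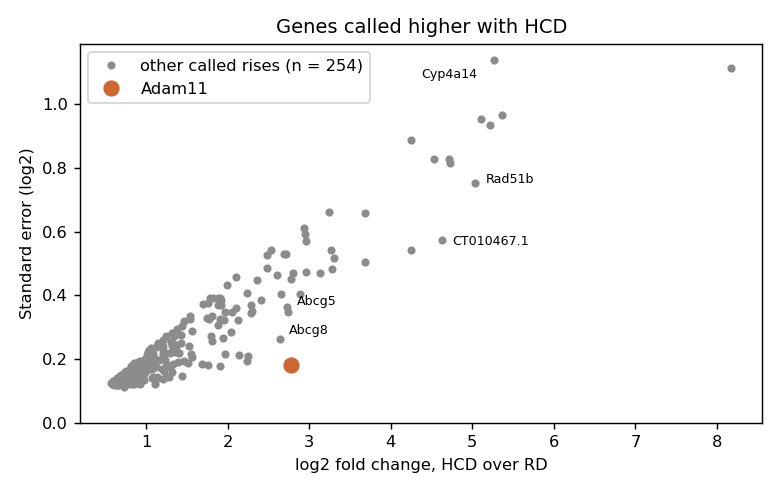
Standard error against log2 fold change (HCD over RD) for the 255 genes called higher with HCD, each point a gene. Adam11, at 2.77 with a standard error of 0.18, lies below the other genes of like fold change, and Abcg8 at 2.64 is the labelled gene nearest to it.

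The remaining ADAM family genes gave no call. The tables hold 17 of them besides Adam11, and 7 passed the filter on low counts. edgeR called 0 of the 7, against 3.27% of all genes tested, with only Adam9, which was lower, past an unadjusted p of 0.05, which 20.9% of all genes passed. DESeq2 called 0 of the 7, against 6.97% of the 14223 genes to which it gave an adjusted p. The median log2 fold change of the 7 was 0.10, beside 0.0074 over all genes tested, and 4 were above 0 and 3 below. The values ran from -0.36 to 0.69, and 1 of the 7 had diets that did not overlap, against 27.6% of all genes tested.

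Adam9, an active sheddase, was the most abundant family member with both diets. It was at 29.8, 32.2 and 29.6 FPKM in the RD livers and at 26.7, 24.5 and 21.1 FPKM in the HCD livers. All HCD livers were below all RD livers, and the difference was -0.36 on the log2 scale (SE 0.13, adjusted p = 0.171, edgeR), not past the threshold. Adam10, which cleaves Notch and many adhesion proteins, had 8.42 ± 0.56 FPKM (SD, n = 3) with RD and 7.55 ± 0.83 with HCD, with overlapping livers (log2 fold change -0.18, SE 0.15, adjusted p = 0.526, edgeR). Adam17, which sheds TNF and ligands of the EGF receptor, had 3.97 ± 0.21 FPKM with RD and 3.77 ± 1.05 with HCD (log2 fold change -0.09, adjusted p = 0.847, edgeR).

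Adam23, of the same protease-inactive group as Adam11, was at 0.58, 0.51 and 0.63 FPKM with RD and at 0.76, 0.65 and 0.57 FPKM with HCD, with overlapping livers (log2 fold change 0.17, adjusted p = 0.690, edgeR). Adam22, the third gene of that group, had 0 to 7 counts per liver and was not tested. The other tested members were Adam15, Adam33 and Adam19, at mean levels of 0.18 to 0.54 FPKM with RD and 0.21 to 0.88 FPKM with HCD. The log2 fold change of Adam15 was 0.69 (adjusted p = 0.352, edgeR). The 9 members besides Adam22 that were not tested, among them the testis gene Adam2 and the leukocyte gene Adam8, had at most 25 counts in any liver.

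The order of the family by FPKM differed between the diets for Adam11. With RD it was 4th, below Adam17 (3.76 to 4.18 FPKM) and above Adam23 (0.51 to 0.63), and its livers overlapped neither. With HCD it was 2nd, below Adam9 (21.1 to 26.7) and above Adam10 (6.61 to 8.16), again without overlap. Adam23 and Adam15, which followed Adam11 with RD, overlapped each other with both diets. Adam11 made up 4.13%, 5.04% and 5.87% of the summed FPKM of the 18 family genes in the RD livers, and 27.4%, 28.1% and 35.8% in the HCD livers. The sum itself was 45.4 to 50.1 FPKM with RD and 52.1 to 57.2 with HCD.

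**Figure D3:**
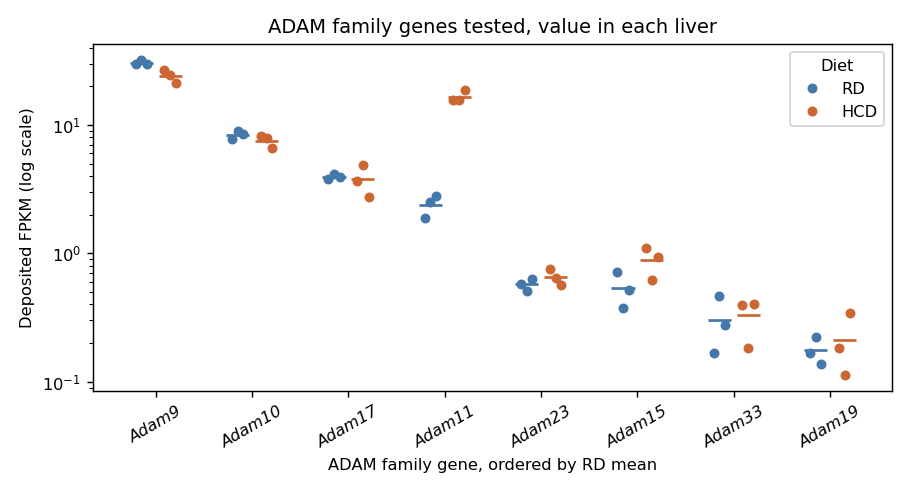
Deposited FPKM on a log scale of the 8 ADAM family genes that passed the filter on low counts, in each liver, with lines for the diet means. The Adam11 livers move from between 1.87 and 2.78 with RD to between 15.5 and 18.6 with HCD, and none of the other 7 genes was called.

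LGI ligands and Kv1 channel subunits, which are linked to the protease-inactive group, were sparse in these livers. The scaffold genes Dlg1 and Dlg3 of the same list had at least 446 and 173 counts in each liver. Of 14 genes for LGI ligands, Kv1 channel subunits and their scaffold proteins, 10 had rows in the tables used here and 4 were tested. edgeR and DESeq2 called 0 of the 4, against 3.27% and 6.97% of all genes, so that a count of 0 in so short a list is near the background. In edgeR, 1 of the 4 was higher at an unadjusted p under 0.05, which 20.9% of all genes passed. The ligands Lgi2, Lgi3 and Lgi4 had at most 20 counts in a liver. Kcna2, a Kv1 channel subunit, was at 1.01, 0.77 and 2.48 CPM with RD and at 4.09, 3.45 and 2.92 CPM with HCD, without overlap, like 27.6% of all genes tested, and its log2 fold change was 1.28 (SE 0.50, adjusted p = 0.192, edgeR). The scaffold gene Dlg1 was the most abundant of the list, at 6.31 FPKM with RD and 5.56 with HCD (log2 fold change -0.21, adjusted p = 0.549, edgeR).

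Genes that mature, carry or inhibit active ADAM proteases were tested next. Of 18 such genes, 16 had rows, 15 were tested and edgeR called 0, against 3.27% of all genes, while Reck, which was higher, and Frmd8 and Tspan33, which were lower, passed an unadjusted p of 0.05, near the 20.9% of all genes that did. DESeq2 called 1 of the 15, against 6.97% of all genes: Frmd8, which stabilises the carriers of Adam17. The diets did not overlap for 3 members that were higher and 2 that were lower, near the 27.6% of all genes. Frmd8 was at 29.2, 26.3 and 22.9 CPM with RD and at 15.5, 15.4 and 18.3 CPM with HCD, without overlap, which is -0.67 on the log2 scale (SE 0.16, adjusted p = 0.0564, edgeR; adjusted p = 0.0307, DESeq2). The log2 fold change of Reck, a membrane inhibitor of metalloproteases, was 0.83 and that of Tspan33, a tetraspanin partner of Adam10, -0.71 (adjusted p = 0.129 and 0.223, edgeR). Furin, a convertase that removes the prodomain of ADAMs, was the most abundant of the list at 43.1 FPKM with RD and 42.4 with HCD (log2 fold change -0.05, adjusted p = 0.868, edgeR). The median of the 15 was 0.26.

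Integrins, which disintegrin domains can bind, gave 0 calls by edgeR and DESeq2 among 14 tested of 17, against 3.27% and 6.97% of all genes. In edgeR, 2 of the 14 were higher at an unadjusted p under 0.05, which 20.9% of all genes passed. Diets were without overlap in 2 of the 14, against 27.6% of all genes. Itga6, a laminin receptor subunit, was at 1.54, 1.33 and 1.30 CPM with RD and at 5.36, 3.17 and 2.27 CPM with HCD, without overlap (log2 fold change 1.38, SE 0.43, adjusted p = 0.120, edgeR). Itgb1, the beta subunit shared by most of them, was the most abundant at 57.5 FPKM with RD and 59.8 with HCD (log2 fold change 0.04, adjusted p = 0.900, edgeR). The median of the 14 was 0.12.

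Genes near Adam11 on the chromosome gave no call. Within 500 kb of either end, 31 genes had rows, 19 were tested and edgeR and DESeq2 called 0, with 1 higher at an unadjusted p under 0.05. With 3.27% of all genes called by edgeR and 6.97% by DESeq2, 0 of 19 is near the background. The unadjusted p was under 0.05 in edgeR for 20.9% of all genes. Their log2 fold changes ran from -0.77 to 0.89 with a median of 0.12, and 5 of the 19 had diets without overlap (4 higher, 1 lower), against 27.6% of all genes tested. The nearest listed gene upstream, Ccdc43, 63.7 kb away, differed by 0.12 on the log2 scale (adjusted p = 0.835, edgeR). Meioc and Fzd2, 79.2 and 153 kb upstream, had at most 12 counts in a liver.

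Downstream, the gap junction gene Gjc1 at 19.3 kb and Higd1b at 55.6 kb had at most 6 counts, and the splicing factor Eftud2 at 58.2 kb differed by -0.14 (log2, adjusted p = 0.671, edgeR). Hexim1, an inhibitor of transcription elongation 336 kb downstream, was the 1 gene past an unadjusted p of 0.05. It was at 48.9, 49.3 and 51.7 CPM with RD and at 63.4, 58.3 and 63.5 CPM with HCD (log2 fold change 0.31, adjusted p = 0.183, edgeR). The largest value was that of Fam171a2, 314 kb upstream, at 0.89 (adjusted p = 0.273, edgeR).

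**Figure D4:**
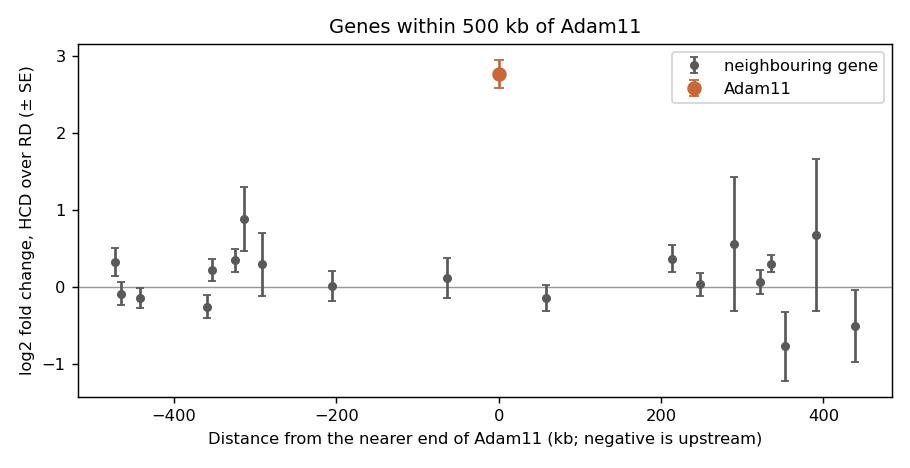
Log2 fold change (HCD over RD) with its standard error for the 19 tested genes within 500 kb of Adam11, by distance in kb from the nearer end of Adam11. The neighbours lie between -0.77 and 0.89, and Adam11 at 2.77.

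The genes whose pattern over the 6 livers was most like that of Adam11 were found by Pearson's r of log2 CPM among the 13104 other genes tested. The 6 points share the split into 3 livers per diet and come from the same libraries, and 234 genes had an r over 0.95 and 167 one under -0.95. The 8 highest were Cdk9 (0.9992), Rpl29 (0.9970), H2-D1 (0.9969), Gm3362 (0.9965), Ftl1-ps1 (0.9961), Gm45051 (0.9949), Cox5a (0.9943) and Cd68 (0.9934). Cdk9 encodes a kinase of transcription elongation, Rpl29 a ribosomal protein, H2-D1 an MHC class I chain, Cox5a a subunit of respiratory complex IV and Cd68 a lysosomal protein of macrophages. Gm3362 is a processed pseudogene, Ftl1-ps1 is named as a copy of a ferritin gene and Gm45051 is annotated as antisense, so that their reads may be shared with other genes.

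These genes differed widely in the size of their change. Cdk9 was at 33.5, 34.5 and 34.6 CPM with RD and at 43.7, 43.3 and 44.4 CPM with HCD, a log2 fold change of 0.36 (adjusted p = 0.137, edgeR), which is not past the threshold. The log2 fold changes of Gm3362 and Gm45051 were 2.25 and 2.60 (adjusted p = 0.0030 and 0.0282, edgeR), near that of Adam11, at 13.9 and 3.45 mean CPM with HCD. Cd68 had a log2 fold change of 1.24, and Rpl29, Ftl1-ps1, Cox5a and H2-D1 had values of 0.52 to 0.88.

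The lowest r belonged to Sqle (-0.9968), Tmem258 (-0.9962), Stard4 (-0.9959) and 4930579G18Rik (-0.9955). Sqle was at 140, 108 and 88.8 CPM with RD and at 5.41, 7.24 and 4.05 CPM with HCD, so that the livers with the most Adam11 in each diet had the least Sqle. The log2 fold change of Stard4, a carrier of cholesterol in the cytosol, was -1.74 (adjusted p = 0.0023, edgeR). Tmem258, a subunit of the oligosaccharyl transferase, had one of -0.54 (adjusted p = 0.0712, edgeR).

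When the mean of each diet was removed, the livers within a diet were most like Adam11 in Proser2 (r = 0.9981), Slc25a51 (0.9962), Acsl3 (0.9940) and Lrrfip1 (0.9928). None of these genes was called by edgeR. Their log2 fold changes were 0.29, 0.05, -0.22 and -0.59 in that order. Slc25a51, the mitochondrial carrier of NAD, was at 36.3, 69.4 and 77.2 CPM in the RD livers and at 53.0, 59.8 and 76.1 CPM in the HCD livers, lowest and highest in the same replicates as Adam11.

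**Figure D5:**
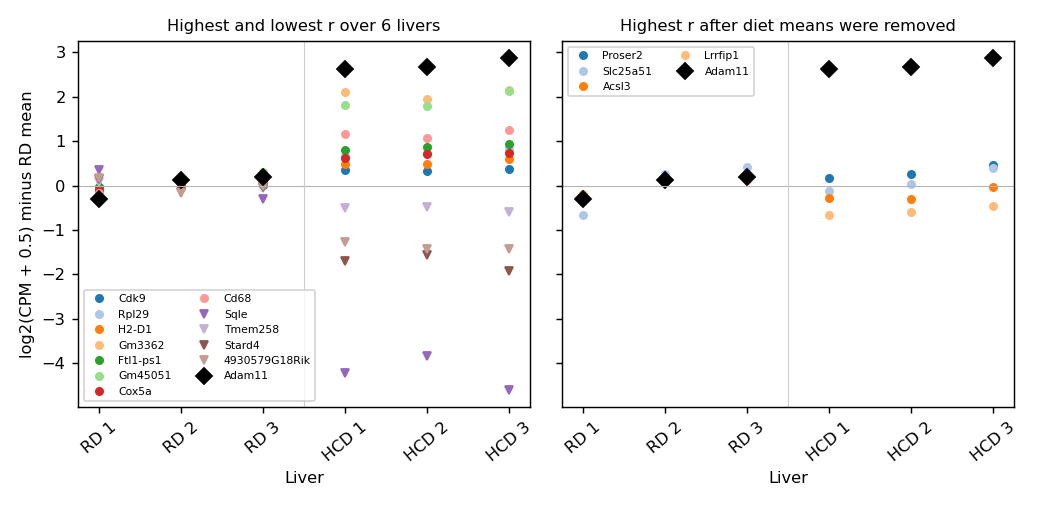
Log2(CPM + 0.5) minus the mean of the RD livers in each liver, for Adam11 (diamonds), the 8 genes of highest r (circles) and the 4 of lowest r (triangles) over 6 livers (left), and the 4 of highest r after diet means were removed (right). On the left the genes separate the diets in the same or the opposite direction as Adam11 by smaller steps, except for a larger step of Sqle, and on the right the diets stay close.

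Markers of liver cell types were set beside Adam11, which in bulk tissue cannot be assigned to a cell. Fewer cells of a type and less RNA per cell cannot be told apart. Hepatocyte markers, among them Alb and Apoa1, summed to 87340 to 118900 CPM with RD and 97810 to 137400 with HCD, the highest of all marker sums. Of the 7 hepatocyte markers with rows, 3 had log2 fold changes above 0 and 4 below, with a median of -0.25. Diets were without overlap for 2 that were higher and 2 that were lower, against 27.6% of all genes tested. edgeR called Cyp3a11, a drug-metabolising enzyme, higher (log2 fold change 1.06, adjusted p = 0.0329), against 3.27% of all genes called. DESeq2, with 6.97% of all genes called, called Cyp3a11 and Ttr, a carrier of thyroid hormone in plasma (log2 fold change 0.59 in edgeR, adjusted p = 0.143 in edgeR and 0.0144 in DESeq2). Neuron markers had rows for 2 of 7 and sums of 3.56 to 6.30 CPM with RD and 5.84 to 11.6 with HCD, mostly from Syt1. Syt1, a calcium sensor of synaptic vesicles, had 44 to 173 counts in a liver and diets that did not overlap (log2 fold change 0.84, unadjusted p = 0.0308, adjusted p = 0.191, edgeR), and its part in the Adam11 result was not tested. Schwann cell markers summed to 2.26 to 2.44 CPM with RD and 2.41 to 3.18 with HCD. Of the 2 tested, edgeR and DESeq2 called 0, against 3.27% and 6.97% of all genes. None of the 2 passed an unadjusted p of 0.05 in edgeR, against 20.9% of all genes. In so short a list, 0 is near the background.

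Globin genes of red cells were higher with HCD. Of the 4 erythroid genes, the globins Hba-a1 and Hbb-bs were called higher (log2 fold change 2.41 and 2.28, adjusted p = 0.0217 and 0.0223, edgeR), Hbb-bt had 2.60 (adjusted p = 0.0552) and Alas2 had -0.70 (adjusted p = 0.612). DESeq2 called 3 of the 4, the globins, and the shares called over all genes were 3.27% with edgeR and 6.97% with DESeq2. The erythroid sum was 137 to 233 CPM with RD and 172, 461 and 444 CPM in HCD replicates 1, 2 and 3. HCD replicate 1 lay within the RD range of this sum through Alas2, an enzyme of heme synthesis, at 8.24 CPM there and 97.0 to 154 CPM elsewhere. Hba-a1 alone was at 27.4, 15.4 and 36.7 CPM in the RD livers and at 77.1, 176 and 170 CPM in the HCD livers, without overlap, and the part of red cells in the Adam11 result was not tested. All 7 Kupffer cell markers had log2 fold changes above 0, with a median of 0.91. Of these 7, edgeR called 0 (3.27% of all genes), 3 had an unadjusted p under 0.05 (20.9% of all genes) and DESeq2 called 2 (6.97% of all genes). Their sum was 111 to 193 CPM with RD and 361, 314 and 154 CPM in HCD replicates 1, 2 and 3. HCD replicate 3 lay within the RD range, and the part of Kupffer cells in the Adam11 result was not tested.

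All 8 stellate cell markers had log2 fold changes above 0, with a median of 0.51. Of these 8, edgeR and DESeq2 called 0, against 3.27% and 6.97% of all genes, and 2 had an unadjusted p under 0.05, near the 20.9% of all genes. Their sums did not overlap, at 227 to 240 CPM with RD and 248 to 364 with HCD, and their part in the Adam11 result was not tested. The sums overlapped between the diets for endothelial markers (107 to 183 CPM with RD, 127 to 199 with HCD), cholangiocyte markers (37.6 to 93.2 and 65.9 to 98.6), leukocyte markers (6.54 to 11.2 and 8.997 to 15.2) and the pancreatic gene Cela1 (20.0 to 26.2 and 7.33 to 22.8). Of the 6 cholangiocyte markers with rows, 5 had log2 fold changes above 0, with a median of 0.62. For 2 of the 6, which were higher, the diets did not overlap, near the 27.6% of all genes tested. The part of cholangiocytes in the Adam11 result was not tested. The adipocyte genes Adipoq and Cfd had at most 3 counts in any liver. edgeR tested 7 endothelial, 6 cholangiocyte and 3 leukocyte markers, 1 pancreatic gene and 0 adipocyte genes. edgeR and DESeq2 called 0 genes of these 5 lists, against 3.27% and 6.97% of all genes. With so few genes tested, 0 calls is near the background. In edgeR, 0 had an unadjusted p under 0.05, against 20.9% of all genes.

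Adam11 was also set against genes of like length. The 1310 tested genes of 5051 to 6006 bases, the tenth of all genes that holds Adam11, had a median log2 fold change of -0.07. With the trend of each library with gene length removed, the log2 fold change of Adam11 was 2.86.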

How the data were processed

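Liver RNA of 3 RD-fed and 3 HCD-fed mice was isolated with the RNeasy Kit and sequenced by Novogene. The authors deposited raw read counts per gene and FPKM per liver. The submitters' processing notes list GRCm39, STAR, HTSeq, DESeq2 and edgeR without versions or roles, and strand and annotation are not given in the sources used here. The log2 fold changes and p-values that the authors deposited come from their own comparison and were not used. Diets came from the sample labels. Coordinates, which the deposited tables do not carry, are those of GENCODE M21 on GRCm38, and 20666 of 20673 genes were matched by Ensembl identifier.

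Read counts were fitted with edgeR 4.0.16 under R 4.3.3 (filterByExpr by diet, TMM, glmQLFit and glmQLFTest of diet without covariates, Benjamini-Hochberg over 13105 genes tested, threshold 0.05). The design had only 3 livers per diet, so that the spread between livers sets the precision, and a count of 0 allows 0.130 to 0.218 CPM (3 counts of the total). Alternatives were DESeq2 1.42.0, other scalings and filters, limma 3.58.1 on log2 FPKM, removal of the length trend, a replicate block and each liver left out. Copies were searched with minimap2 2.31. Figures were drawn with matplotlib 3.10.9 in Python 3.11.15.

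The gene and the lists were chosen with earlier results of these data known. The lists held the ADAM family, LGI and Kv1 partners, sheddase regulators, integrins, genes within 500 kb, diet check genes and markers of 11 cell types, among them adipocytes. Named were Adam11, tested ADAM genes, the nearest neighbours on each side, called and most abundant list members, the genes of highest and lowest r, and those next to Adam11 in the order of gaps. Reck, Tspan33, Kcna2, Itga6, Hexim1 and Fam171a2 were added after their values were seen. Protease activity of ADAM genes is given from general knowledge, as no protein sequences were used here. Each library was taken as the liver of 1 mouse. Some genes of the diet check are not reported here.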

Additional observations from a re-analysis of the deposited data

How the results depend on the processing

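The log2 fold change of Adam11 was 2.38 to 2.86 over 10 alternatives with all 6 livers and 2.62 to 2.88 with 1 liver left out, and the 2.38 came from limma-trend on log2(FPKM + 1), a scale that understates the change of low genes. Over all genes, DESeq2 called 552 higher and 440 lower, library sizes alone 158 higher, no filter on low counts 285 lower, limma-trend on log2(FPKM + 0.1) 115 lower, and removal of the length trend 138 higher and 113 lower. With 1 liver left out, 15 to 200 genes were called higher and 21 to 141 lower. The sheddase regulators gave 1 call with DESeq2 and 1 without the filter, Frmd8 in both (adjusted p = 0.0307 and 0.0474), and 0 in each other setting. The ADAM family, the LGI and Kv1 partners, the integrins and the neighbours within 500 kb gave 0 calls in every setting, and neighbours within 1000 kb, tried with edgeR on all 6 livers only, gave 0. The replicate numbers do not pair the livers by their labels. The correlations of same-numbered livers' deviations were -0.08, 0.12 and -0.03, not every liver matched its own number best, and a replicate block left 71 genes higher and 65 lower and Adam11 at 2.78. At this depth, genes such as Lgi2 and Adam22 did not pass edgeR's filter on low counts.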
